A study of Mus musculus with 9 samples.

Results

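Described here are 39 mouse genes that act in the G2 and M phases of the cell cycle, from entry into mitosis to the cutting of the daughter cells. They were listed by symbol, with earlier results of these data known. Of the 39 genes, 38 had a row among the 18188 genes listed in every library, and Prc1 is not analysed here. The series holds poly(A)-selected RNA sequencing of CD8+ T cells from mouse spleens, in 5 wild type (WT) libraries and 4 libraries labelled as knocked out for Rig1 (Rig1 KO), which encodes the cytosolic viral RNA sensor RIG-I. The labels give genotype, tissue, cell type and a number for each library. No animals are named in the titles, and the p-values therefore speak only to the spread among these samples, which may be technical. The sources used here do not give how the CD8+ T cells were purified, the design of the knockout allele, or the age and strain of the mice. In bulk samples such as these, a larger number of dividing cells and more RNA per dividing cell cannot be told apart.

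Mitosis begins when cyclin-bound CDK1 and the Polo-like and Aurora kinases drive chromosome condensation and build the spindle. Kinetochores then attach chromosomes to microtubules while the spindle checkpoint holds back the anaphase-promoting complex, and once it is released the chromatids part and the centralspindlin, anillin and midbody proteins divide the cell. Transcripts of these genes are scarce in resting T cells and accumulate in G2 and M, through promoters that are bound by the DREAM and MuvB complexes, B-MYB, FOXM1 and NF-Y.

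The libraries held 15496262 to 17893558 recovered reads, and 11873 to 23130 of them lay on the 38 members found. The CD8 T cell label was checked against Cd3e, Cd3d, Cd8a and Cd8b1, whose summed level was 2470 to 2920 transcripts per 1000000 (TPM) in WT and 3670 to 4140 TPM in Rig1 KO. Ddx58, the older symbol of the RIG-I gene, had 65.1 ± 2 TPM in WT (SD, n = 5) and 33.3 ± 2.04 TPM in Rig1 KO (SD, n = 4), with no overlap. This value covers the whole gene and does not check a deleted exon. Introns count in the gene lengths that the TPM values were scaled by, so levels of different genes are compared only on a TPM scale rebuilt with exon lengths.

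Promoters of mitotic genes are known for a CDE/CHR-type arrangement, in which a cell cycle homology region (CHR) near the start lies downstream of CCAAT boxes bound by NF-Y. RefSeq promoter windows of the build GRCm38.p6 were found for 34 of the 39 members, and none for Ccna2, Aurkb, Incenp, Kif20a and Tpx2. The CHR was searched as TTTGAA or TTCGAA and the CCAAT box as CCAAT, on both strands, and matches of the 2 motifs can share at most 1 base. A CHR match was present in 27 of the 34 member genes (79.4%), against 21.7% of all 27025 genes with a window. A CCAAT match was present in 25 (73.5%), against 41.1% of all genes, and both were present in 23 (67.6%), against 8.6%. At least 2 CCAAT matches were present in 18 members (52.9%) and in 13.3% of all genes. A match is a description of the letters and not a bound site. The stretches directly upstream of the start are shown for members that the results below turn on, to let the spacing of the elements be seen. Capitals mark CHR matches (TTTGAA, its reverse complement TTCAAA, or TTCGAA) and CCAAT matches (CCAAT or its reverse complement ATTGG), and all run 5′ to 3′ in the direction of transcription.
Cdk1, chr10:69352913-69353032, minus strand: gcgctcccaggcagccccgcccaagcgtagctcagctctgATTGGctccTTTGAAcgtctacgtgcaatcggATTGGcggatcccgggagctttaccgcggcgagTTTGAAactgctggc
Ccnb1, chr13:100786487-100786606, minus strand: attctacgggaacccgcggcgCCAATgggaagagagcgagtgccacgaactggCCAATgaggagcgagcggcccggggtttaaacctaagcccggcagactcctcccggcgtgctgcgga
Top2a, chr11:99024190-99024309, minus strand: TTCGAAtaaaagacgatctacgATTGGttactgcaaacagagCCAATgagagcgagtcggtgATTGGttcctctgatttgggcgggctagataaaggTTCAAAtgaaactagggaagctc
Racgap1, chr15:99651657-99651776, minus strand: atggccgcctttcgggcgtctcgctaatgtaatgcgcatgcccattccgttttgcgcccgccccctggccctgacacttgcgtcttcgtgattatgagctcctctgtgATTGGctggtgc
Cenpa, chr5:30666766-30666885, plus strand: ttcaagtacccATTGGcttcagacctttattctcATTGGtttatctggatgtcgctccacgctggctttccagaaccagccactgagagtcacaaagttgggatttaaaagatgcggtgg
Mad2l1, chr6:66535101-66535220, plus strand: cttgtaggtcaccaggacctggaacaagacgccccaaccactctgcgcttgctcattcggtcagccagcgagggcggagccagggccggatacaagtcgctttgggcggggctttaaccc

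The CHR matches of Racgap1 and Cenpa lay just after the start, at positions 6 and 17, outside the stretches shown. Mad2l1, Melk, Nuf2, Birc5 and Nusap1 had neither element in their windows. Counting 1 window for each member, 26 of 36 CHR matches lay between 60 bases before and 50 bases after the start.

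**Figure D1:**
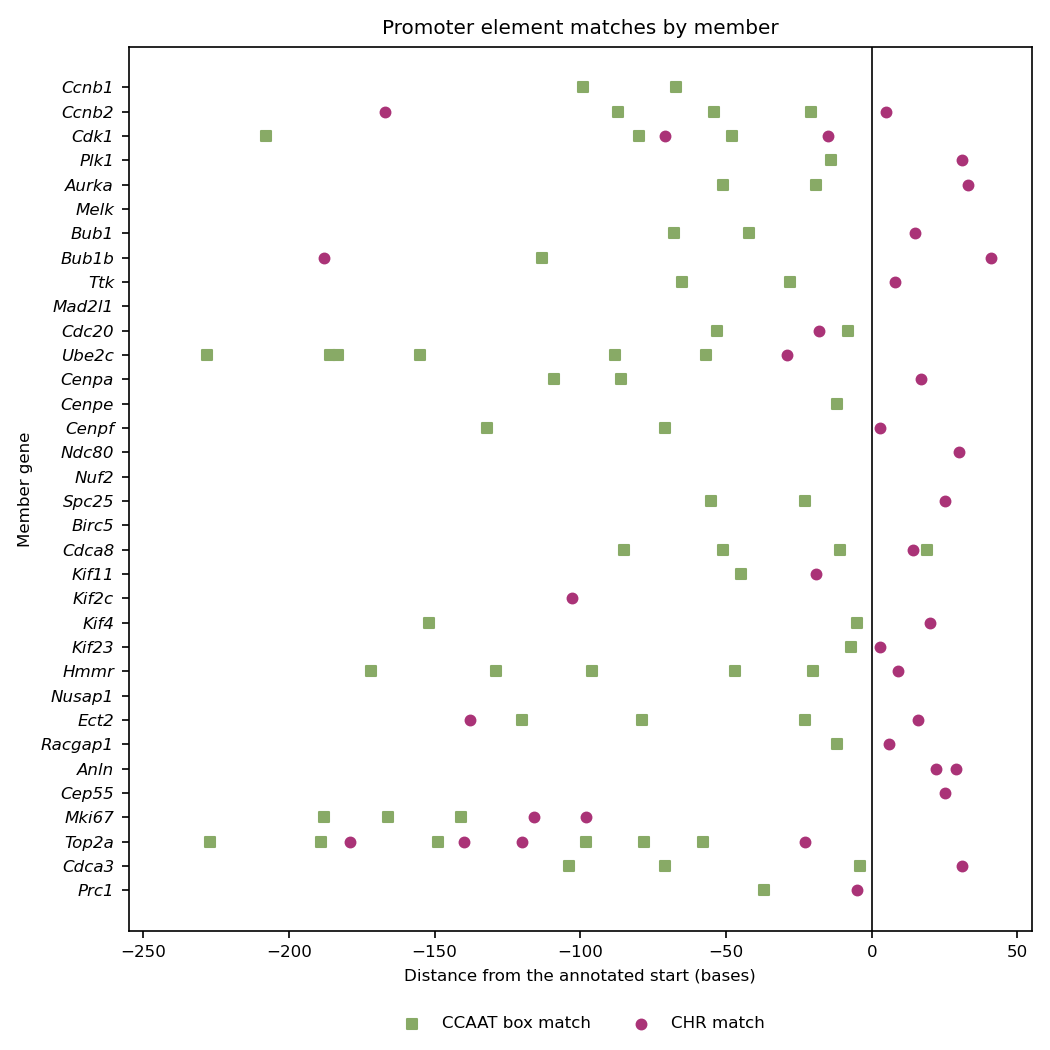
Matches to the CHR (circles) and the CCAAT box (squares) on either strand, by distance from the annotated start in bases (x axis), for the 34 members with a RefSeq window (y axis). For a member with several windows, the window with the lowest coordinate is drawn. Most circles lie near the start, and the squares lie mainly upstream of it.

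Members were compared between the genotypes on log2(TPM + 1) with limma, a linear model with variances shared across genes. A gene was tested if it had at least 1 TPM in at least 4 libraries, and was called at an adjusted p (Benjamini-Hochberg over all 10540 tested genes) under 0.05. Of the 37 tested members, 11 rose in Rig1 KO, 1 fell and 25 were not called. Of all tested genes 33.5% rose and 12.2% fell, 45.7% in all, against 29.7%, 2.7% and 32.4% of the members, so the members' share called was not above the background. The median log2 fold change (Rig1 KO minus WT) was 0.41 over the members and 0.13 over all tested genes. The sign was positive for 35 members and negative for Aurka and Cenpa, and it was positive for 7066 of the 10540 tested genes. The members varied together across libraries, so their signs are not separate observations. The groups did not overlap for 4 members, Racgap1, Mad2l1 and Cdca3 (higher) and Cenpa (lower), against 38.1% of all tested genes.

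**Figure D2:**
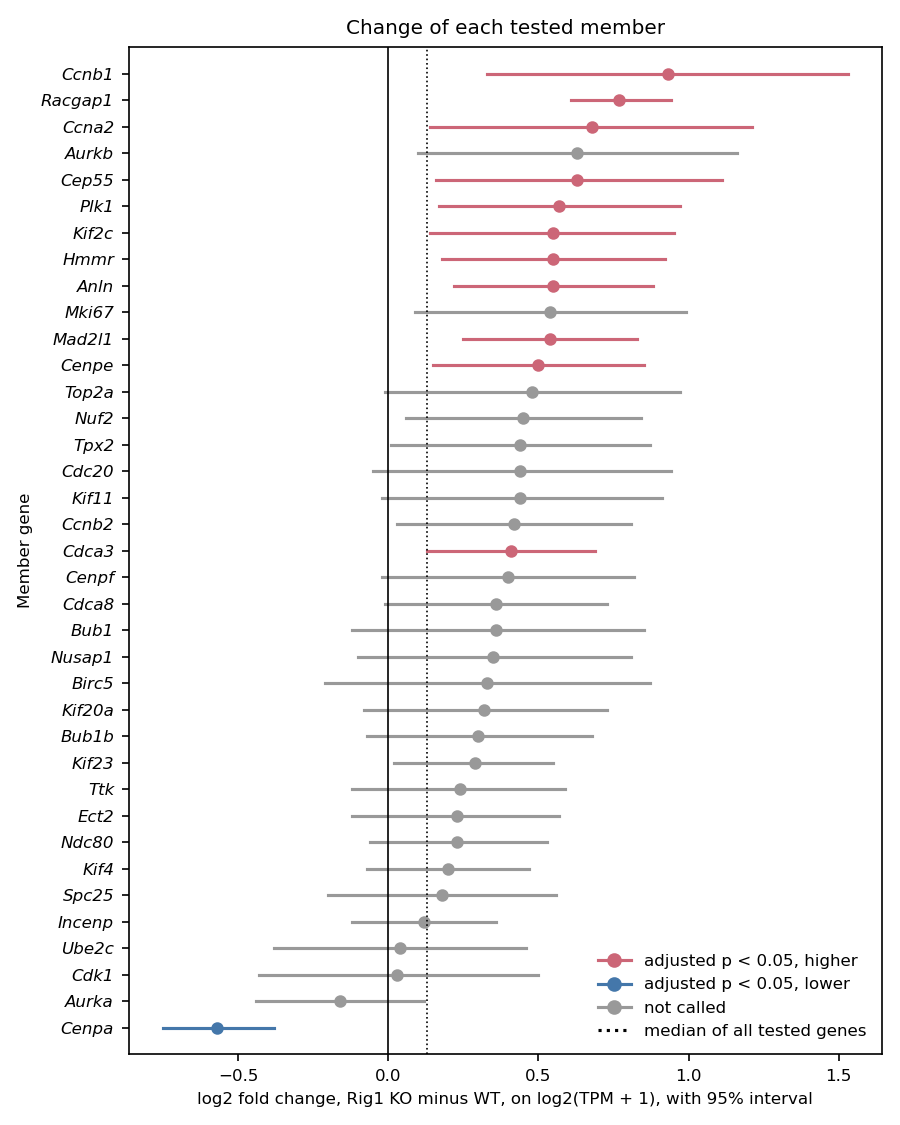
Log2 fold change of each of the 37 tested members (x axis, Rig1 KO minus WT on log2(TPM + 1)), with its 95% interval from limma. Coloured points passed the adjusted p of 0.05, grey points did not, and the dotted line is the median of all tested genes. Ccnb1 has the largest value (0.93) and Cenpa the lowest (-0.57).

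The members varied together across libraries. Taking each member's level as a percentage of its own mean over the 9 libraries, the median over members was 69.9, 61.1, 86.9, 121 and 90.8% in WT 1 to WT 5, and 100, 98.3, 141 and 125% in Rig1 KO 1 to 4. WT 4 was thus above Rig1 KO 1 and Rig1 KO 2. It was the highest WT library for 34 of the 37 members (91.9%), against 21.2% of all tested genes, and WT 5 was highest for the other members, Cenpa, Ube2c and Cdca3. WT 2 was the lowest WT library for 27 members (73.0%) and WT 1 for 10 (27.0%), against 32.6% and 21.2% of all tested genes. Among the knockout libraries, Rig1 KO 3 was the highest for 29 members (78.4%), against 47.0% of all tested genes. The coefficient of variation between libraries of a group had a median of 28.9% over members in WT and 17.7% in Rig1 KO, against 8.88% and 10% over all tested genes. Genes of S phase, chosen as a reference, had the same highest library in each group and a narrower range. Their medians were 90.3, 83.5, 96.2, 114 and 95.4% in WT and 95.5, 96.5, 113 and 106% in Rig1 KO. Over all tested genes the medians were 93.8, 91.5, 95.4, 97.9 and 98.0% in WT and 101, 99.5, 111 and 109% in Rig1 KO. Genes in general thus also had WT 2 lowest and Rig1 KO 3 highest, and the S phase medians of Rig1 KO 3 and Rig1 KO 4 were near theirs.

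**Figure D3:**
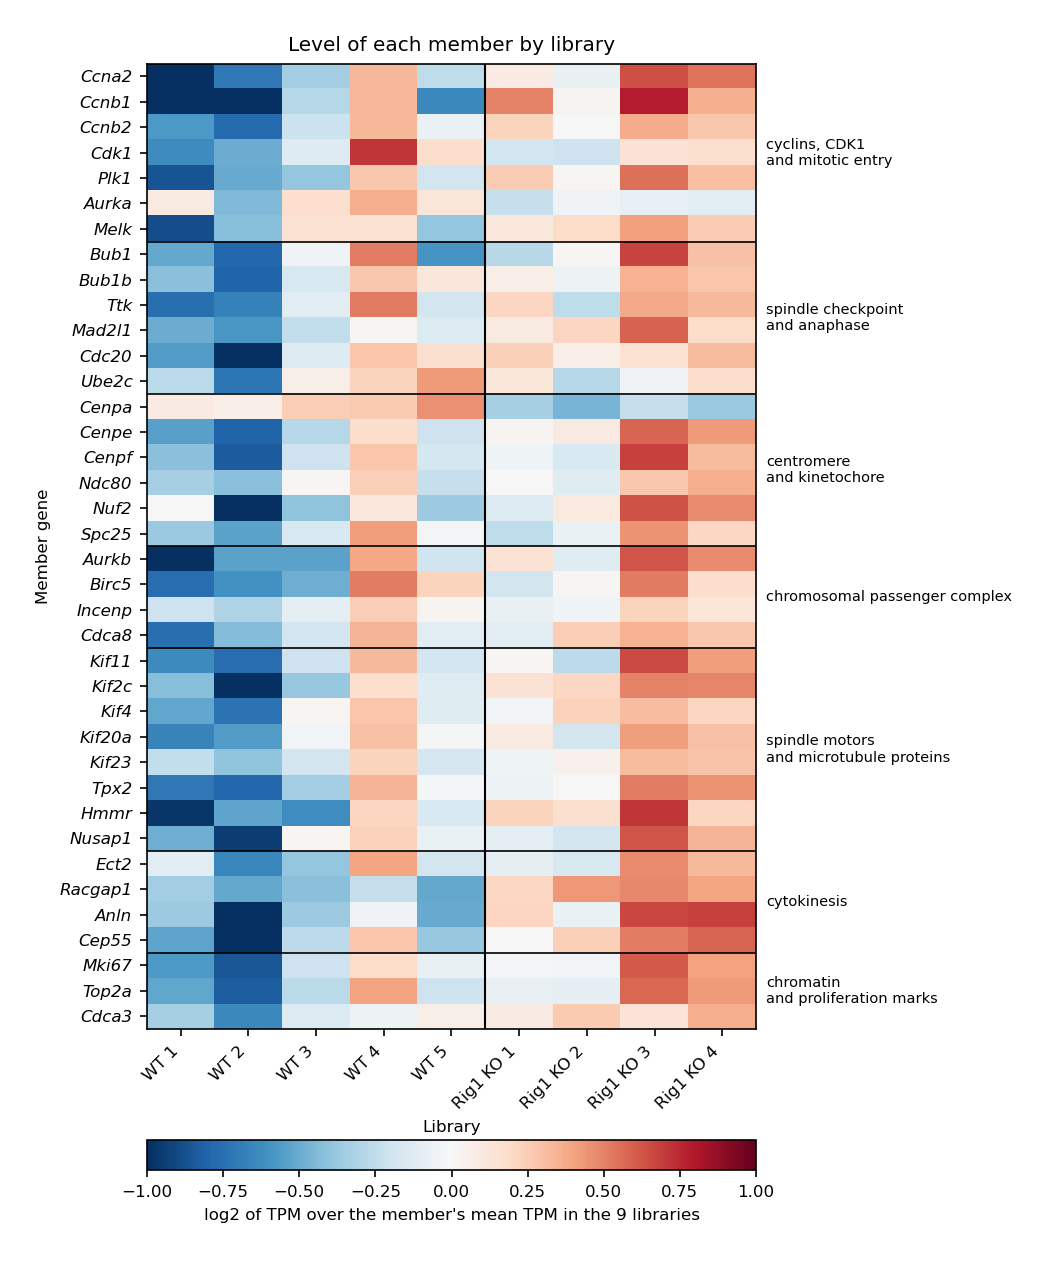
Level of each of the 38 members found (rows, grouped by role) in each library (columns), as the log2 of its TPM over its mean TPM in the 9 libraries, with the colour scale ending at -1 and 1. WT 1 and WT 2 are low and WT 4 and Rig1 KO 3 high for most rows. The 2 genotypes do not overlap for Racgap1, Cenpa, Mad2l1 and, by a narrow margin, Cdca3.

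Cyclins, CDK1 and the kinases of mitotic entry had 6 tested members, of which 3 rose. Ccnb1, cyclin B1, the partner of CDK1 at mitotic entry, had 4.85, 5.37, 9.82, 15.1 and 7.68 TPM in WT 1 to 5 and 16.9, 12.2, 20.7 and 15.3 TPM in Rig1 KO 1 to 4. WT 4 lay among the knockout libraries and the other WT libraries were below all of them. Ccnb1 rose from 8.56 ± 4.15 to 16.3 ± 3.57 TPM (SD), a log2 fold change of 0.93 with a standard error of 0.273 (adjusted p = 0.0174). Without Rig1 KO 3 the adjusted p was 0.0557. Ccna2, cyclin A2, which acts in S phase and early mitosis, had 12.5, 15.9, 20.5, 32.8 and 21.8 TPM in WT and 27.5, 24.7, 40.7 and 38.0 TPM in Rig1 KO. WT 4 again exceeded Rig1 KO 1 and Rig1 KO 2. Its log2 fold change was 0.68 with a standard error of 0.243 (adjusted p = 0.0421), and it lost the call when any of WT 1, WT 2, WT 3, Rig1 KO 1, Rig1 KO 3 or Rig1 KO 4 was left out (adjusted p 0.0509 to 0.121). Ccna2 overlaps Exosc9 on the opposite strand, and the sources used here do not give the counting strand. Plk1, the Polo-like kinase of spindle assembly and mitotic exit, had 7.49, 9.6, 10.4, 16.4 and 11.9 TPM in WT and 16.2, 13.8, 20 and 16.8 TPM in Rig1 KO. Only WT 4 reached the knockout range. Its log2 fold change was 0.57 with a standard error of 0.182 (adjusted p = 0.0251), and the call was lost without WT 2 (0.0542), Rig1 KO 3 (0.0767) or Rig1 KO 4 (0.0582).

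Cdk1, the kinase that cyclin B1 activates, had the log2 fold change nearest to 0 of all members. It had 4.21, 4.63, 5.98, 10.7 and 7.36 TPM in WT and 5.72, 5.64, 7.22 and 7.28 TPM in Rig1 KO, so that WT spanned the whole knockout range. The log2 fold change was 0.03, with a 95% interval from -0.43 to 0.50 (adjusted p = 0.905). The interval of Ccnb1, from 0.33 to 1.53, overlaps it, and the difference between the genes was not tested. Ccnb2, a second B-type cyclin, was at 5.30 to 11.4 TPM in WT and 9.08 to 11.7 TPM in Rig1 KO (adjusted p = 0.0724). Aurka, the Aurora kinase of the spindle poles, had a mean of 8.96 TPM in WT against 7.83 TPM in Rig1 KO and a log2 fold change of -0.16 (adjusted p = 0.332). Leaving out WT 1 and WT 2 together gave -0.30 (adjusted p = 0.0321), and Aurka was also called lower without WT 2 alone. Melk, a kinase linked to proliferation, was at 0.478 to 0.980 TPM in WT and 0.949 to 1.17 TPM in Rig1 KO and did not pass the filter on low values.

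Of the 6 members of the spindle checkpoint and the anaphase switch, Mad2l1 rose and the others were not called. Mad2l1 encodes MAD2, which binds and holds CDC20 at unattached kinetochores. Its levels were 16.3, 15.4, 19.4, 23.2 and 20.9 TPM in WT and 24.5, 26.8, 34.6 and 26.2 TPM in Rig1 KO, so the groups did not overlap. It rose by a log2 fold change of 0.54 with a standard error of 0.131 (adjusted p = 0.00683), and was called with any single library left out. Cdc20, the activator of the anaphase-promoting complex that MAD2 restrains, had a mean of 45.5 ± 15.5 TPM in WT against 59.2 ± 4.29 TPM in Rig1 KO (SD), with a log2 fold change of 0.44 and a 95% interval from -0.05 to 0.94. Its reads can include those of Elovl1 on the opposite strand. Bub1 and Bub1b, kinase and pseudokinase of the checkpoint, had log2 fold changes of 0.36 and 0.30 (adjusted p = 0.200 and 0.169). Ttk, the MPS1 kinase that starts checkpoint signalling, had 0.24 (adjusted p = 0.252). Ube2c, the ubiquitin-conjugating enzyme of the anaphase-promoting complex, was at 10.6 ± 3.08 TPM in WT against 10.7 ± 1.47 TPM in Rig1 KO, and it overlaps Tnnc2.

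Among the 6 centromere and kinetochore members, Cenpa fell, Cenpe rose and 4 were not called. Cenpa encodes the histone H3 variant that marks centromeres. It had 89.2, 88.1, 99.8, 101 and 116 TPM in WT and 67.1, 61.0, 71.3 and 65.2 TPM in Rig1 KO. Every knockout library was below every WT library. Its mean fell from 98.9 ± 11.3 to 66.2 ± 4.29 TPM (SD), a log2 fold change of -0.57 with a standard error of 0.0835 (adjusted p = 0.00033). An exact permutation test of the means, two-sided, gave p = 0.0159, the smallest value this test can give for 5 against 4. Cenpa was called lower with any single library left out, and in Rig1 KO 3, where most members were highest, it was at the top of the knockout range but still below WT 2. With the mean log2 level of B cell markers as a covariate its log2 fold change was -0.37 (adjusted p = 0.0519), the alternative in which it was not called.

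Cenpe, a kinesin that carries chromosomes to the spindle equator, had 3.30, 2.76, 3.93, 5.43 and 4.16 TPM in WT and 4.88, 5.10, 7.20 and 6.44 TPM in Rig1 KO. WT 4 was above Rig1 KO 1 and Rig1 KO 2. The log2 fold change was 0.50 with a standard error of 0.159 (adjusted p = 0.0249), and the call was lost without WT 1 (0.0531), WT 2 (0.0510), Rig1 KO 3 (0.0766) or Rig1 KO 4 (0.0697). The members of the microtubule-binding NDC80 complex, Ndc80, Nuf2 and Spc25, had log2 fold changes of 0.23, 0.45 and 0.18 (adjusted p = 0.167, 0.0603 and 0.408). Cenpf, a large protein of the outer kinetochore, had 0.40 (adjusted p = 0.111).

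Of the 4 chromosomal passenger genes, whose products correct faulty attachments and later act at the cleavage site, 0 passed the limma threshold, 1 had an unadjusted p under 0.05 (Aurkb) and 1 passed with limma-voom on recovered reads (Aurkb, adjusted p = 0.0497). Aurkb, the kinase of the complex, lay just outside it, with 9.46, 13.6, 13.6, 25.8 and 17.2 TPM in WT and 21.8, 18.1, 30.4 and 27.3 TPM in Rig1 KO. WT 4 was above Rig1 KO 1 and Rig1 KO 2. Its log2 fold change was 0.63 with a 95% interval from 0.10 to 1.16 (adjusted p = 0.0533), and it was called without WT 4 (0.81, adjusted p = 0.00686) or without Rig1 KO 2 (0.76, adjusted p = 0.0374). Birc5, survivin, had 8.98, 10, 10.9, 21.7 and 17.8 TPM in WT and 13.4, 15.4, 21.9 and 17.2 TPM in Rig1 KO. WT 4 and WT 5 lay within the knockout range. Its log2 fold change was 0.33 (95% interval -0.21 to 0.87, adjusted p = 0.29). Cdca8, borealin, had 0.36 (adjusted p = 0.102), and it overlaps 9930104L06Rik. Incenp, the scaffold of the complex, had 0.12 with a 95% interval from -0.12 to 0.36, and was the second most abundant member on the exon-length scale, with 76.3 TPM.

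Of the 8 motors and microtubule proteins tested, Hmmr and Kif2c rose and all 8 log2 fold changes were positive, from 0.20 to 0.55. Hmmr, a spindle-associated hyaluronan receptor, had 1.63, 2.21, 2.08, 3.71 and 2.88 TPM in WT and 3.72, 3.57, 5.23 and 3.71 TPM in Rig1 KO. WT 4 was level with the lower 3 knockout libraries, and Rig1 KO 3 stood above all others. The log2 fold change was 0.55 with a standard error of 0.168 (adjusted p = 0.0214), and without Rig1 KO 3 it was 0.44 (adjusted p = 0.0678). Kif2c, MCAK, a kinesin that depolymerises microtubules, had 2.16, 1.07, 2.23, 3.26 and 2.67 TPM in WT and 3.20, 3.34, 4.10 and 4.07 TPM in Rig1 KO. The groups overlapped through WT 4 and Rig1 KO 1. The log2 fold change was 0.55 with a standard error of 0.183 (adjusted p = 0.0313), and the call was lost without WT 1 (0.0532), WT 3 (0.0505), Rig1 KO 3 (0.0810) or Rig1 KO 4 (0.0823). Kif11, the motor that pushes spindle poles apart, had 5.29, 4.86, 7.14, 10.3 and 7.21 TPM in WT and 8.35, 6.87, 13 and 11 TPM in Rig1 KO. Its groups overlapped, and its log2 fold change was 0.44 with a 95% interval from -0.02 to 0.91 (adjusted p = 0.108). Tpx2, which activates Aurora A on the spindle, and Kif23, the motor subunit of centralspindlin, had 0.44 and 0.29 (adjusted p = 0.0858 and 0.0703). Nusap1, Kif20a and Kif4, a microtubule bundler and 2 motors of the late spindle, had 0.35, 0.32 and 0.20 (adjusted p = 0.187, 0.171 and 0.202). Their reads can include those of Oip5, Cdc23 and Pdzd11, which overlap them on the opposite strand.

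Of the 4 cytokinesis members 3 rose, Racgap1, Anln and Cep55, against 33.5% of all tested genes. Of 13 further cytokinesis genes, given below, 0 passed the limma test. Racgap1, the GTPase-activating partner of Kif23 in centralspindlin, had 52.6, 46.9, 50, 56.8 and 46.9 TPM in WT and 77.4, 90.4, 93.3 and 88.1 TPM in Rig1 KO. Every knockout library was above every WT library. Racgap1 rose from 50.6 ± 4.21 to 87.3 ± 6.92 TPM (SD), a log2 fold change of 0.77 with a standard error of 0.0752 (adjusted p = 2.08e-05; exact permutation p = 0.0159, two-sided). It was the most abundant member, at 107 TPM on the exon-length scale, and its coefficients of variation, 8.31% in WT and 7.93% in Rig1 KO, were below the medians over all tested genes. Anln, anillin, which links the contractile ring to the membrane, had 1.47, 0.864, 1.47, 1.84 and 1.33 TPM in WT and 2.19, 1.81, 3 and 3.04 TPM in Rig1 KO. The groups overlapped only through WT 4 and Rig1 KO 2. The log2 fold change was 0.55 with a standard error of 0.150 (adjusted p = 0.0124), and Anln was called with any single library left out. Cep55, which recruits the abscission machinery to the midbody, had 3.41, 1.91, 4.11, 5.96 and 3.79 TPM in WT and 4.95, 5.82, 7.02 and 7.38 TPM in Rig1 KO. WT 4 exceeded Rig1 KO 1 and Rig1 KO 2. The log2 fold change was 0.63 with a standard error of 0.214 (adjusted p = 0.0321), and the call was lost without WT 1 (0.0584), Rig1 KO 2 (0.0516), Rig1 KO 3 (0.0828) or Rig1 KO 4 (0.0906). Ect2, the exchange factor that switches on RhoA at the cleavage site, had 0.23 (adjusted p = 0.254).

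Of the remaining members, Cdca3 rose and Mki67 and Top2a were not called. Cdca3, a trigger of mitotic entry, had 18, 14.5, 20.6, 21.9 and 23.6 TPM in WT and 24, 27.1, 24.9 and 29.2 TPM in Rig1 KO. WT 5, the highest WT library, was just below Rig1 KO 1, the lowest knockout library. Its log2 fold change was 0.41 with a standard error of 0.125 (adjusted p = 0.0205), and without Rig1 KO 4 the adjusted p was 0.0646. Mki67, the Ki-67 protein that coats mitotic chromosomes and is the usual stain for cycling cells, had 52.9, 43.5, 68.3, 89.1 and 74.9 TPM in WT and 77.9, 77.3, 120 and 104 TPM in Rig1 KO. WT 4 was above Rig1 KO 1 and Rig1 KO 2. Its log2 fold change was 0.54 with a 95% interval from 0.09 to 0.99 (adjusted p = 0.0509), and it was called without WT 4 (0.66, adjusted p = 0.0185), WT 5 (0.0445), Rig1 KO 1 (0.0472) or Rig1 KO 2 (0.0446), with limma-voom (0.0347) and with exon lengths (0.044). Top2a, the topoisomerase that untangles sister chromatids, had 29.8, 24.1, 35.4, 56.3 and 36.9 TPM in WT and 40.5, 40, 63.6 and 57.3 TPM in Rig1 KO. Its groups overlapped through WT 4, and its log2 fold change was 0.48 (95% interval -0.01 to 0.97, adjusted p = 0.101).

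Within WT, some lists of markers of other cell types had the same lowest and highest library as most members. These were the erythroid list, the basophil and mast cell list, and the primary granule genes of the neutrophil list. The basophil and mast cell sum was 11.7 TPM in WT 2 and 46.0 TPM in WT 4. The 8 erythroid markers found, of which 3 of 5 tested rose (Hba-a1, Hbb-bs and Gata1), had a summed level of 85.2, 78.1, 94.9, 204 and 124 TPM in WT and 181, 261, 315 and 319 TPM in Rig1 KO, with WT 2 lowest and WT 4 highest in WT as for most members. Hba-a1 and Hbb-bs, globin genes with near-identical copies, were at 39.5 to 190 TPM and 14.4 to 135 TPM. All marker sums use the deposited TPM, in which genes with short introns weigh more. Slc4a1 stayed at or below 1.15 TPM, and no marker was at 0 in all libraries. The primary granule genes of neutrophil precursors, Mpo, Elane, Ctsg and Prtn3, all rose and summed to 17.4 to 104 TPM in WT, again with WT 2 lowest and WT 4 highest, and to 152 to 231 TPM in Rig1 KO. Within Rig1 KO, where most members were highest in Rig1 KO 3, the match held only in part. There the primary granule sum and the basophil and mast cell sum were highest in Rig1 KO 2. The erythroid sum was highest in Rig1 KO 4 (319 TPM, against 315 TPM in Rig1 KO 3). Like the members' median, the erythroid sum was higher in Rig1 KO 3 and Rig1 KO 4 than in Rig1 KO 1 and Rig1 KO 2. The primary granule genes were picked out of the neutrophil list after the values were seen. In that list 4 of 9 rose and 2 fell, S100a8 and S100a9. The whole neutrophil list summed to 133 to 637 TPM in WT and 261 to 362 TPM in Rig1 KO.

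The mean log2 level of the erythroid markers was used as a covariate, an alternative chosen after seeing the data. With it 1 member rose (Racgap1, 0.61, adjusted p = 0.00478) and 4 fell (Cenpa, Cdk1, Birc5 and Spc25). The median log2 fold change was then -0.24 over members and 0.03 over all tested genes. Cenpa then had a log2 fold change of -0.76 (adjusted p = 0.00252) and Mad2l1 0.06 (adjusted p = 0.759). The covariate itself differs between the genotypes, so its part and that of the genotype cannot be told apart. B cell markers fell for 7 of 8 tested (165 to 1160 TPM in WT, highest in WT 5, and 92.7 to 199 TPM in Rig1 KO). With their mean log2 level as a covariate 6 members were called higher and none lower. The median log2 fold change over members was then 0.60, against 0.41 without it, and 0.20 over all tested genes. The B cell covariate also differs between the genotypes, and the same limit holds.

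The other marker lists gave the counts below, beside 33.5% of all tested genes that rose and 12.2% that fell. Natural killer markers rose for 4 of 4 (139 to 171 TPM in WT against 328 to 382 TPM in Rig1 KO) and basophil and mast cell markers for 4 of 4 (11.7 to 46.0 and 204 to 400 TPM). Megakaryocyte markers fell for 4 of 4 (180 to 242 and 31.2 to 39.3 TPM), and the T cell markers rose for 4 of 4. Germinal centre B cell markers rose for 2 of 3 tested, S1pr2 and Mybl1. The whole list summed to 4.5 to 8.82 TPM in WT and 9.51 to 10.7 TPM in Rig1 KO. Plasma cell markers rose for 2 and fell for 1 of 5, with Jchain and Prdm1 higher and Irf4 lower. That list summed to 207 to 323 and 236 to 280 TPM. CD4 T cell markers fell for 1 of 2, Cd40lg, and their list summed to 10.1 to 43.9 and 6.66 to 11.3 TPM. Monocyte and macrophage markers were called by limma for 0 of 5 (0 at an unadjusted p under 0.05, 0 with limma-voom). Mybl1 and Prdm1 were below 1 TPM in every WT library and passed the filter only through the knockout libraries, so the filter favoured their calls, which are no support for a rise of their lists. The part of these lists and of the primary granule genes in the members' levels was not tested.

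**Figure D4:**
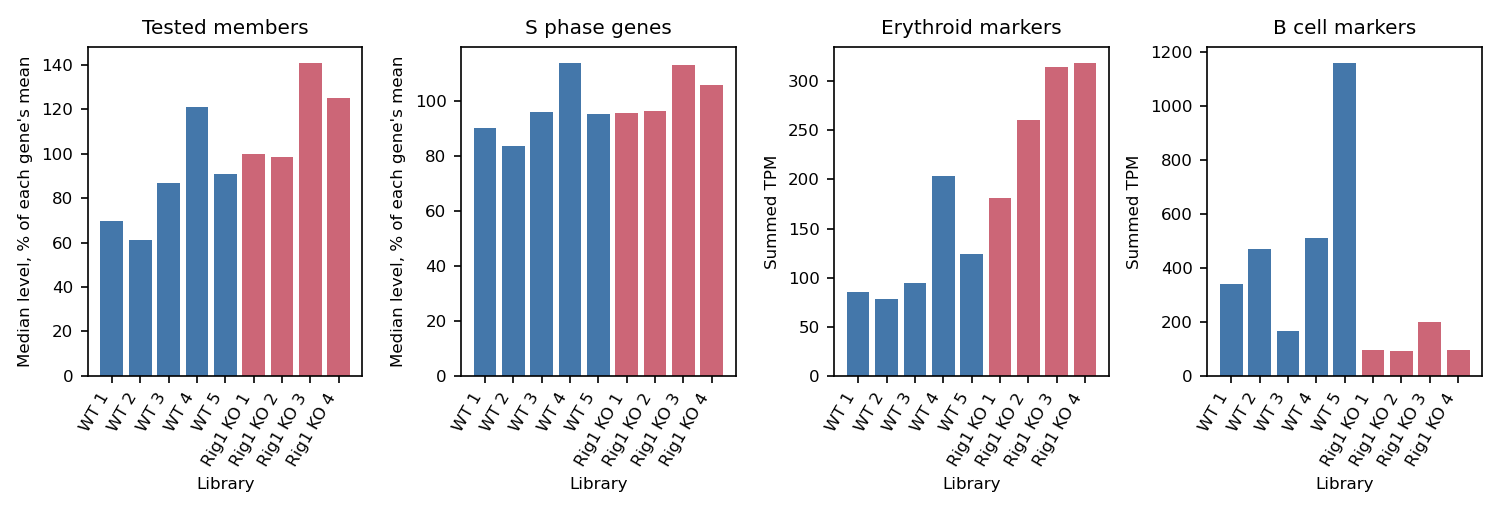
Bars by library (x axis, WT blue, Rig1 KO red) of the median level of the tested members and of S phase genes, each gene as a percentage of its own mean, and of the summed TPM of the erythroid and B cell marker lists. The member and erythroid panels both have WT 2 lowest and WT 4 highest within WT, and the B cell panel is highest in WT 5.

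Further genes of the same machinery, in 7 lists by role, numbered 150, of which 147 were found and 145 tested. Of these 39 rose (26.9%) and 11 fell (7.59%), with a median log2 fold change of 0.18, against the background given above. Of 35 S phase genes 5 rose (Gins3, Rrm1, Rrm2, Tyms and Ccne1) and 4 fell (Pcna, Cdt1, Ccne2 and Slbp), with a median of 0.09. Among condensin and cohesion genes (4 rose and 2 fell of 21), Pttg1, securin, which inhibits separase, fell from 55.3 ± 2.89 to 25.9 ± 3.19 TPM (log2 fold change -1.07), and Sgo1, shugoshin, which protects centromeric cohesin, fell by 1.09 on the log2 scale. Ncapd3, a condensin II subunit, and Wapl, which releases cohesin, rose by 0.35 and 0.29. Among centromere and kinetochore genes (8 rose and 3 fell of 30), Mis12, of the MIS12 complex, rose from 28.2 ± 2.33 to 64.2 ± 9.63 TPM (log2 fold change 1.15) and its partner Knl1 rose by 0.76. The constitutive centromere subunits Cenpw and Cenpl fell by 1.22 and 0.56 on the log2 scale. Hjurp, the chaperone that loads CENP-A and looked at here because Cenpa fell, rose by 0.22 (adjusted p = 0.0193), and Mis18a, which also acts in loading, rose by 0.24 (adjusted p = 0.0329). These genes were chosen after their values were seen.

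Among mitotic kinases, phosphatases and cyclins (3 rose and 1 fell of 14), the phosphatases Cdc14b and Cdc25b rose by 0.64 and 0.45, and Cks2, a CDK-binding subunit, fell from 71.0 ± 4.55 to 36.4 ± 4.30 TPM (log2 fold change -0.95). Of 17 genes of the anaphase-promoting complex 5 rose (29.4%) and 1 fell (5.88%). Its subunits Cdc23 and Cdc26 rose by 0.59 and 0.29 and its chain-extending enzyme Ube2s fell by 0.56 on the log2 scale. Among 23 spindle and microtubule genes 9 rose and 1 fell, with Kif22, a chromosome-arm kinesin, and Nde1, a dynein regulator, at 0.57 and 0.53. Fam83d, which directs a casein kinase to the spindle, fell from 8.16 ± 1.26 to 1.48 ± 0.796 TPM (log2 fold change -1.93). Of 13 further cytokinesis genes 0 passed the limma test, 3 had an unadjusted p under 0.05 (Depdc1b, Gas2l3 and Chmp4b) and 2 passed with limma-voom on recovered reads (Depdc1b and Chmp4b), and the median was 0.16. Among 27 regulators of these promoters 10 rose (37.0%) and 3 fell (11.1%), near the shares of all tested genes (33.5% and 12.2%). E2f2 rose by 0.63 and Nfya, a subunit of NF-Y, by 0.50. Nfyc, another subunit, fell by 0.29 on the log2 scale and Cdkn1a, the p21 inhibitor of cyclin-dependent kinases, fell by 1.41. The genes named here by the rule, which leaves out Hjurp, Mis18a, Foxm1, Mybl2 and the S phase and cytokinesis genes, had adjusted p-values of at most 0.0161 and groups that did not overlap. Foxm1 and Mybl2, chosen after their values were seen, had log2 fold changes of 0.22 and 0.35 (adjusted p = 0.256 and 0.0712).

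The count of members called higher turned on single libraries. It was 23 without WT 4, 4 without Rig1 KO 3, 5 without Rig1 KO 4 and 7 without WT 1, and between 8 and 13 without any other library. All 11 members called with every library were among the 23 called without WT 4. It was 7 with median ratio or quantile scaling, under which the median over all tested genes moved from 0.13 to 0.01 or 0.02 and that over members to 0.29 or 0.26. Racgap1 was called in the same direction in all 25 alternatives, Mad2l1 and Cenpa in 24 of them each, and Ccna2 in 11. The shares of all tested genes called under the alternatives are not given here. Leaving out a library changes the test of every gene, so the shifts in these counts cannot be read as particular to the members.

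**Figure D5:**
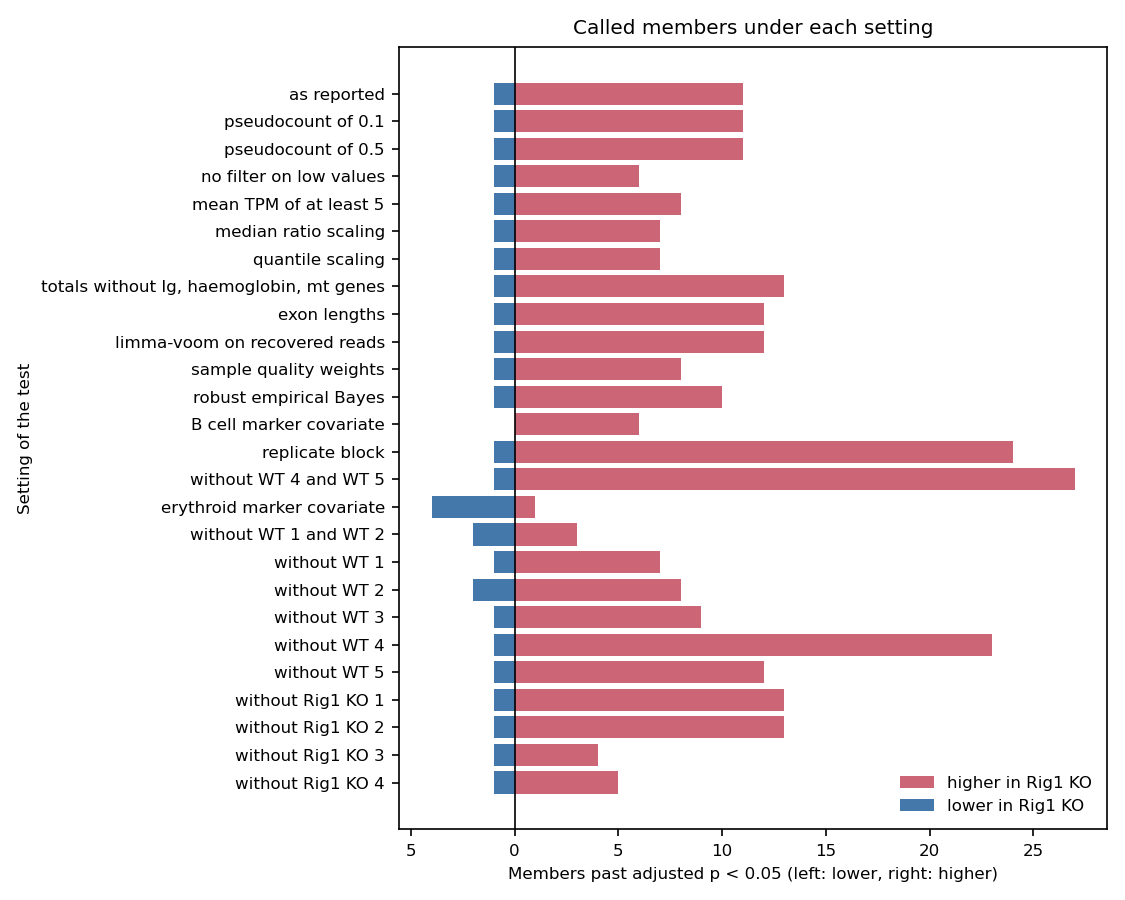
Number of members past the adjusted p of 0.05 (x axis, lower to the left and higher to the right of 0) under each setting of the test (y axis). The count of members called higher runs from 1 with the erythroid covariate to 27 without WT 4 and WT 5.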

How the data were processed

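The authors deposited TPM values, 1 column per library and 1 row for each of 18188 genes, per the file headers. Per the submitters' processing notes, the tools were fastp, a read trimmer, and featureCounts, a read counter, on mm39 (GRCm39). Aligner, annotation and counting strand are not given in the sources used here. Deposited TPM kept enough digits to recover whole reads for 100% of genes. The gene lengths they imply lay within 1% of the genomic span, introns included, for 96.6% of 17478 genes, which lowers the TPM of genes with long introns. Exon lengths, overlaps and promoter windows (250 bases before to 50 after the start) came from GRCm38 tables.

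The test was limma-trend (limma 3.58.1, R 4.3.3), two-sided, applied to log2(TPM + 1) of genes that reached 1 TPM in 4 or more of the 9 libraries, adjusted by Benjamini-Hochberg over all 10540 tested genes. A fold change on this scale understates that of low genes. Exact permutation tests used all 126 divisions of the libraries into 5 and 4. The fit was also tested on simulated data. The members and gene lists were chosen with earlier results of these data known. The rule for named genes took every called member, fixed anchor genes, and up to 2 genes per direction in each further list. Alternatives were other pseudocounts, filters, scalings, gene lengths, weights, covariates, a replicate block, limma-voom on recovered reads, and libraries left out. Intervals are at 95%. Old symbols were matched through synonyms for Sgo1, Sgo2a and Knl1.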

Additional observations from a re-analysis of the deposited data

Results flagged for a closer look

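Of 78 groups of libraries examined for a value far from the rest, 1 stood out: Hmmr in Rig1 KO 3, at 5.23 TPM against 3.57 to 3.72 TPM in the other knockout libraries. Chance flags about 1 in 20 groups. Rig1 KO 3 was the highest knockout library for most members.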

How the results depend on the processing

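Against 11 members higher and 1 lower, 6 were higher with no filter on low values and 7 with median ratio or quantile scaling. With the B cell covariate 6 were higher and 0 lower (Cenpa adjusted p = 0.0519), and the median over members was 0.60, against 0.41. Leaving out WT 4 and WT 5 gave 27, leaving out WT 1 and WT 2 (added after seeing the data) 3 higher and 2 lower. Leaving out 1 library gave 4 to 23 higher and 1 to 2 lower. The share of all tested genes called is not given here for any alternative. Over all tested genes, replicate numbers did not pair the libraries (correlations of same-numbered deviations 0.0972, -0.0601, -0.0996 and -0.0724). Among members, replicates 1 and 2 had lower medians than 3 and 4 in both groups (69.9, 61.1, 86.9 and 121% in WT, 100, 98.3, 141 and 125% in Rig1 KO). Whether the numbers pair the libraries for the members was not tested. With the number as a replicate block, which also drops WT 5, 24 members were higher, against 12 without WT 5 and no block. The erythroid covariate, added after seeing the data, gave 1 higher and 4 lower and a median of -0.24, against 0.03 over all tested genes. It turned Ccna2 to -0.24, Ccnb1 -0.05, Cdk1 -0.78, Plk1 -0.08, Cenpe -0.07, Aurkb -0.23, Birc5 -0.60, Kif11 -0.29, Kif2c -0.01, Hmmr -0.02, Cep55 -0.09, Mki67 -0.22 and Top2a -0.35. Cdk1, at 0.03 and 0.21 without WT 4, also turned to -0.07 (median ratio), -0.11 (quantile), -0.04 (voom and quality weights), -0.25 (without WT 1 and WT 2), -0.08 (without WT 1), -0.06 (WT 2), -0.01 (Rig1 KO 3) and -0.02 (Rig1 KO 4). Of the further genes, 39 higher became 22 (B cell covariate), 62 (without WT 4 and WT 5), 3 (erythroid) and 21 (without WT 1 and WT 2), and 11 lower became 21 (median ratio), 20 (quantile) and 7 (B cell covariate). With no filter 17934 genes were tested. The causes of the other changes were not tested. At 36 to 4187 reads per member and library (Melk apart), counting error was largest for Kif2c.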
